A study of Mus musculus with 2 samples.

Results

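The genes described here are cytokines, chemokines and their receptors in untreated C2C12 myoblasts. They were chosen by name, as every RefSeq entry whose gene symbol starts with Il, Ccl, Cxcl, Ccr, Cxcr, Tnfrsf or Tnfsf and a digit, together with Lif, Lifr, Osmr and Il6st. The rule found 183 of the 24165 entries of the table, which belong to 152 of its 20128 gene symbols. C2C12 is an established line of mouse muscle precursor cells, and it was measured by global run-on sequencing (GRO-seq), in which engaged RNA polymerase is allowed to extend its transcript in isolated nuclei and the labelled nascent RNA is sequenced. All values come from a single group of untreated cells at 80% confluency, with nuclei from 4 plates for each isolation, and 2 replicate libraries that the authors pooled. Gene activity is therefore 1 value per entry, the sense-strand read density of the gene body in RPKmM (reads for each mappable kilobase, scaled to sequencing depth), or the word Inactive for an entry that the authors could not separate from the read density of gene deserts. No entry has a value per library, so no standard deviation, interval between replicates or test can be given, and the table gives neither the reads behind a value nor the depth of a library. Since activity is given per length, levels of different genes can be set side by side. The active call also depends on length, since a long gene gathers more reads and can pass at a lower density than a short one. Groups of genes were not matched for length here. A low density in a culture can come from few transcribing cells or from little transcription per cell, and these cannot be told apart.

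Cytokines are secreted or membrane-bound proteins by which cells, above all those of the immune system, signal to each other. Most interleukins act through receptors built of several chains, in which a private chain recognises the ligand and a shared chain, such as gp130 (Il6st) or the common gamma chain (Il2rg), takes part in signalling through JAK kinases and STAT factors. Chemokines act through G protein-coupled receptors and guide cell migration, while ligands of the TNF family act through receptors that engage TRAF adaptors and NF-kB. Muscle precursors are known both to answer such signals, as with LIF and IL-6, and to release some of them.

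The labelled cell type was checked against marker genes. All 7 myoblast markers were active, from Pax7 at 0.55 RPKmM to Des, the muscle intermediate filament gene, at 72.5. None of the 5 myeloid marker genes in the table was active, among them Ptprc, the pan-leukocyte antigen CD45. Of the 7 lymphocyte markers, Cd3e was listed at 0.01 and Cd79a at 0.02, and the other 5 were inactive. Of the 4 endothelial markers, Pecam1 and Tek were listed at 0.01, and Cdh5 and Kdr were inactive. The fibroblast collagen genes Col1a1 and Col1a2 were at 9.29 and 28.9, Pdgfra reached 0.38, and Thy1 was inactive.

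Promoters of 5 members are shown first as examples of high and low CpG content among genes that were active and genes that were not. Il6st and Tnfrsf12a are active receptors with CpG-rich promoters, Il2rg is an active receptor gene whose promoter is poor in CpG, and Il1b and Il2 are inactive ligand genes. Each run holds the 200 bases before the start site in RefSeq on GRCm38.p6, written 5′ to 3′ on the gene's strand, and capitals mark CpG and the letters TATAAA. They lie at chr13:112463870-112464069, plus strand, for Il6st, chr17:23677450-23677649, minus strand, for Tnfrsf12a, chrX:101268256-101268455, minus strand, for Il2rg, chr2:129371140-129371339, minus strand, for Il1b, and chr3:37125955-37126154, minus strand, for Il2.
Il6st: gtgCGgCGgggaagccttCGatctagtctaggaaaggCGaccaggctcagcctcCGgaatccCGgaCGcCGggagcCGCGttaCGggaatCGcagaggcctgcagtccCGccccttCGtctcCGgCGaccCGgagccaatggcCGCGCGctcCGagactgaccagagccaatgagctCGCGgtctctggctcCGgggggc
Tnfrsf12a: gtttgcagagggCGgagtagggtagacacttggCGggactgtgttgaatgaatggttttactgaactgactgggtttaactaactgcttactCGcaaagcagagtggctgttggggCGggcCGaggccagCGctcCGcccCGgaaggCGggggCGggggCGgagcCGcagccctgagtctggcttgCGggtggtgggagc
Il2rg: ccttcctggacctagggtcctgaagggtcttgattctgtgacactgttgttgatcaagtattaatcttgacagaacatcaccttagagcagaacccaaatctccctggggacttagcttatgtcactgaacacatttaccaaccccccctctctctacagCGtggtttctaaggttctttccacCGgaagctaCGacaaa
Il1b: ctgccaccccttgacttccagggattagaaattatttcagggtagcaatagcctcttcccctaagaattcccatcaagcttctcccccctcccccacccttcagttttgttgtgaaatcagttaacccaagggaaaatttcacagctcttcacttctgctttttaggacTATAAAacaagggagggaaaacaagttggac
Il2: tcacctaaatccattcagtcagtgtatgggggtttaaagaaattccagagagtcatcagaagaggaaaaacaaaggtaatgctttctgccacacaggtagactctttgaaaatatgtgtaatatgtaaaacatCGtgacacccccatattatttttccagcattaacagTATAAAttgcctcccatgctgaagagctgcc
The run of Il6st holds 24 CpG and that of Tnfrsf12a 13, with a GC content of 69.5% and 63%. The run of Il2rg holds 3 CpG, that of Il2 holds 1 and that of Il1b holds 0. Il1b and Il2 both carry TATAAA, which begins 31 bases before the start site in each, and the other 3 runs do not carry it.

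In the myoblasts, 94 of the 183 entries were active (51.4%), against 70.2% of all entries of the table. At 0.1 RPKmM or more there were 58 entries (31.7%, against 57.2% of all entries), and at 1 RPKmM or more there were 21 (11.5%, against 32.3%). The median activity of the active members was 0.24 RPKmM with quartiles of 0.03 and 0.917, while the median of all active entries was 0.87 with quartiles of 0.22 and 1.99. Thus both the share of active genes and their level were lower among these genes than in the table as a whole, by description and without a test. Counted by gene symbol, 73 of 152 were active (48%, against 68.7% of all symbols) and 18 reached 1 RPKmM (11.8%, against 31.6%).

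Receptor genes were called active more often, and at higher levels, than the genes of their ligands. Receptor and ligand genes were not matched for length, and the part of length in these values was not tested. Of 95 receptor entries, 55 were active (57.9%, against 70.2% of all entries) with a median of 0.34 RPKmM. Of these, 15 reached 1 (15.8% of receptor entries, against 32.3% of all entries). Of 78 ligand entries, 33 were active (42.3%) with a median of 0.11, and 6 reached 1 (7.69%). The shares of both roles thus lay below those of all entries. The remaining 10 entries are antagonists, soluble binding proteins and 2 genes that are neither ligand nor receptor. The TNF receptors had the largest share among the larger families, with 18 of 23 entries active (78.3%), although 3 of these were listed at 0 and 43.5% reached 0.1 RPKmM against 57.2% of all entries, and the chemokine receptors the smallest, with 4 of 19 (21.1%).

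**Figure D1:**
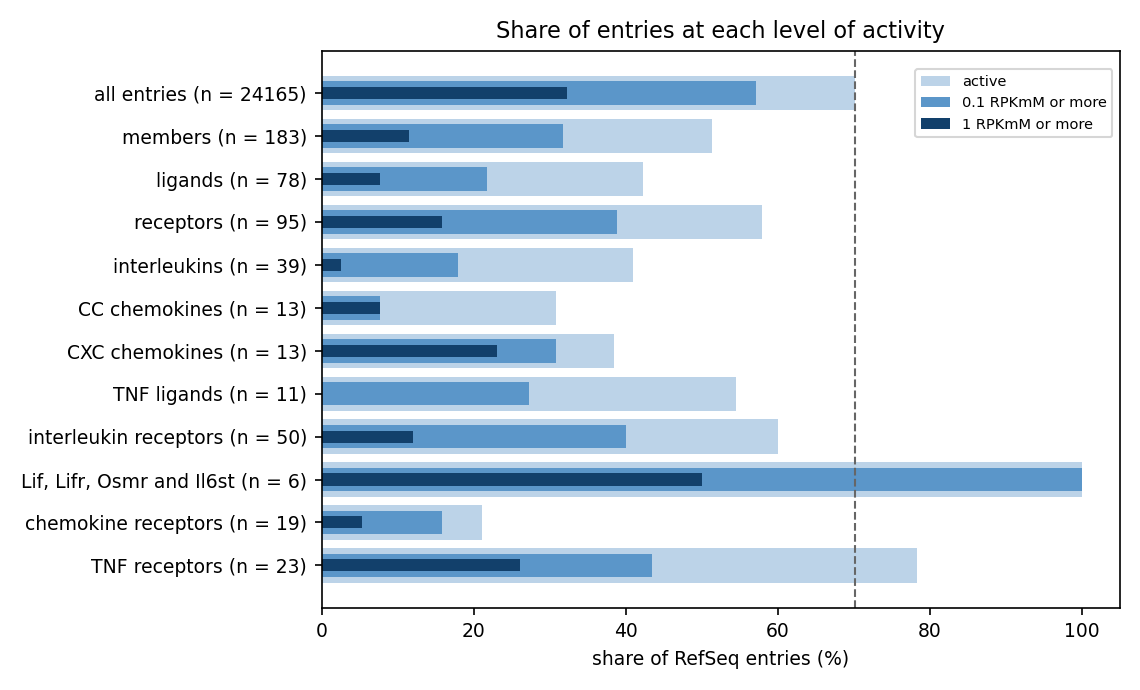
Share of RefSeq entries (%, horizontal axis) that were active, at 0.1 RPKmM or more, and at 1 RPKmM or more, drawn as bars of falling width, for all entries, all members, ligands, receptors and each family; the dashed line is the share of all entries that were active (70.2%). Ligands lie at 42.3% and receptors at 57.9%, and only the TNF receptors and the set of Lif, Lifr, Osmr and Il6st pass the dashed line, the TNF receptors with 3 entries listed at 0.

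Among the interleukins, 16 of 39 entries were active (41%, against 70.2% of all entries), with a median of 0.065 RPKmM. Il34, a ligand of the colony stimulating factor receptor Csf1r, was the most active at 1.64, and Csf1r itself was inactive. Il33, an alarmin stored in the nucleus, followed with 0.94 and 0.39 at its 2 entries, and Il18, a cytokine released after cleavage by caspases, with 0.34. Il7 was at 0.12 and 0.13, and Il15, a cytokine known as abundant in muscle, at 0.11. Il6 was at 0.03 and Il11 at 0.04. The other active interleukins, Il1f9, Il12a, Il25, Il17d and Il27, lay between 0.02 and 0.07. The 22 inactive interleukin genes include those typical of T cells, such as Il2, Il4, Il13, Il17a and Il21, and also Il1a, Il1b and Il10.

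For Il34 the neighbourhood bears on the value. The gene Sf3b3 ends 4315 bp upstream of Il34 on the same strand and had an activity of 4.95 RPKmM, higher than the 1.64 of Il34. GRO-seq reads continue past the annotated end of a gene, and the part of such reads in the value of Il34 was not tested.

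Of the CC chemokines, which attract mainly monocytes and lymphocytes, 4 of 13 entries were active (30.8%, against 70.2% of all entries). Apart from Ccl25 they were at 0.04 (Ccl9) and 0.03 (Ccl11). Of the CXC chemokines, 5 of 13 entries were active (38.5%), and 3 of these reached 1 RPKmM (23.1% of the 13, against 32.3% of all entries). Cxcl12, known for retaining stem cells in the marrow and guiding migrating muscle precursors, was at 1.2 and 1.04 at its 2 entries. Cxcl5, a neutrophil attractant, was at 1.25, although its annotated span of 2327 bp leaves little gene body. Cxcl13 was at 0.17 and Cxcl16 at 0.01. Cxcl9, Cxcl10 and Cxcl11, which are known as interferon-induced, were inactive. The table covers genes of 2 kb or longer, so the chemokine shares are over the longer genes, and Ccl2, Ccl7 and Cxcl1 were not analysed here.

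The TNF ligands had 6 of 11 entries active (54.5%, against 70.2% of all entries) and none at 1 RPKmM. Tnfsf13 (APRIL) was at 0.65, Tnfsf12 (TWEAK) at 0.46 and Tnfsf9 (the ligand of 4-1BB) at 0.33. Tnfsf12 ends 466 bp upstream of Tnfsf13 on the same strand, and the part of its reads in the value of Tnfsf13 was not tested. BC096441, a gene without a value in the table, overlaps both on that strand, and its part in their values was not tested either. Tnfsf13b, Tnfsf15 and Tnfsf8 were at 0.07, 0.04 and 0. Tnfsf10 (TRAIL), Tnfsf11 (RANKL), Tnfsf4, Tnfsf14 and Tnfsf18 were inactive.

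**Figure D2:**
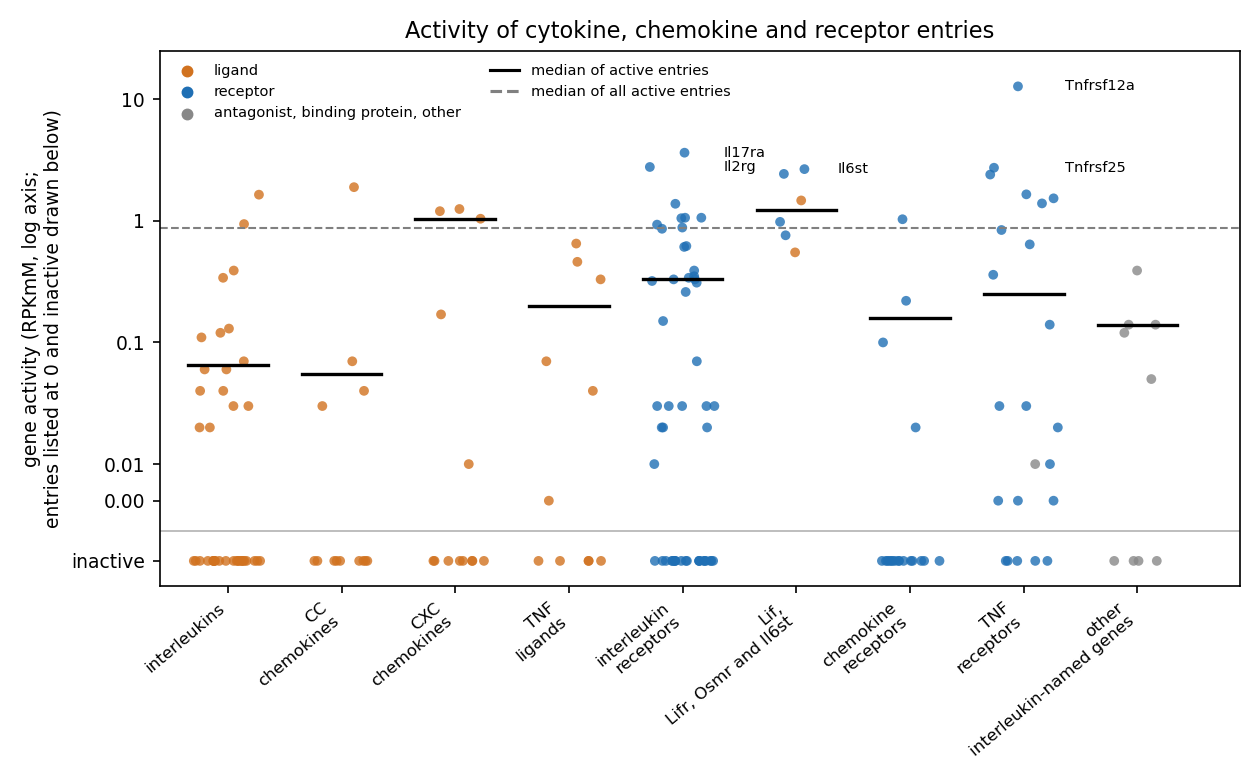
Gene activity (RPKmM, log axis) of every member entry by family, with ligands in orange, receptors in blue and antagonists, binding proteins and others in grey; bars are medians of active entries, the dashed line is the median of all active entries (0.87), and entries listed at 0 or as inactive are drawn below. Tnfrsf12a at 12.7 stands above all other members, and the active interleukins have a median of 0.065.

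Tnfrsf12a (Fn14), the receptor of TWEAK, was the most active member at 12.7 RPKmM, a level above 97.9% of all active entries. The gene lies on the minus strand of mm9 chromosome 17, from 23812414 to 23814416, a span of 2003 bp in the GENCODE annotation, so its value rests on a short gene body. Among the other TNF receptors, Tnfrsf25 (death receptor 3) was at 2.73 and 2.4 at its 2 entries, Tnfrsf23 at 1.65, and the TNF receptors Tnfrsf1a and Tnfrsf1b at 1.53 and 1.39. Plekhg5 ends 534 bp upstream of Tnfrsf25 with an activity of 1.66, and Osbpl5 ends 2890 bp upstream of Tnfrsf23 with 1.36. Tnfrsf10b, the receptor of TRAIL, was at 0.84. Tnfrsf4 (OX40) was at 0.64, with Sdf4 ending 233 bp upstream at 4. Tnfrsf11a (RANK) and both entries of Tnfrsf19 were called active but listed at 0, which after rounding to 2 decimals means a value under 0.01. Tnfrsf22 was at 0.36 and Tnfrsf21 at 0.14, and Tnfrsf9, Tnfrsf14 and Tnfrsf13c were between 0.01 and 0.03. Tnfrsf13b, Tnfrsf17, Tnfrsf8, Tnfrsf18 and Tnfrsf26 were inactive, the first 2 being receptors of B cells.

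Of the interleukin receptors, 30 of 50 entries were active (60%, against 70.2% of all entries), with a median of 0.33 RPKmM. Il17ra, a chain of the IL-17 receptors, was the most active at 3.63, above 88% of active entries, and its partner Il17rc was at 1.06 and 1.05. Il2rg, the common gamma chain, was at 2.77. The annotation places a readthrough gene, Gm20489, over Il2rg on the same strand, and its own value was not analysed here, so the source of the reads at Il2rg was not tested. Il1r1, the signalling receptor of IL-1, was at 1.38 and 0.88, and Il4ra at 1.06. Il20rb was at 0.93 with Nck1 ending 5505 bp upstream at 3.18. Il10rb was at 0.61 and overlaps the interferon receptor gene Ifnar2 at 0.86 on the same strand. Il13ra1 was at 0.62, and Il1rap, the accessory chain of IL-1 and IL-33 receptors, was between 0.33 and 0.35 at its 3 entries. Il17rd, Il18rap, Il3ra and Il12rb1 lay between 0.15 and 0.33. The lowest active genes, Il1rl1, Il15ra, Il22ra1, Il13ra2, Il27ra, Il2rb and Il21r, lay between 0.01 and 0.07. Il2ra, Il7r, Il9r, Il5ra, Il23r and Il12rb2 were among the 16 inactive receptor genes.

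The chemokine receptors had the smallest share of active entries of the families, although by gene symbol they and the CC chemokines both had 25% active, and the medians of active CC chemokines and interleukins were lower. Cxcr4, the receptor of Cxcl12, was at 1.03, Cxcr6 at 0.22, Ccr10 at 0.1 and Ccr1 at 0.02, and the other 12 genes were inactive. Ackr3, which also binds Cxcl12 but lies outside the naming rule, was at 6.16. Among the chemokine pairs examined, Cxcl12 with these receptors was the one in which both sides reached 1 RPKmM.

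Genes of the LIF, IL-6 and IL-11 systems, whose receptors share gp130, were all called active. All 12 entries of Lif, Lifr, Osmr, Il6st, Il6, Il6ra, Il11 and Il11ra1 passed the call, against 70.2% of all entries, while 9 of the 12 reached 0.1 RPKmM and 3 reached 1 (25%, against 32.3% of all entries). Il6st, the shared signalling chain on mm9 chromosome 13 from 113265216 to 113297068, was at 2.66, Lifr at 2.43 and 0.98, Lif at 1.47 and 0.55, Osmr at 0.76 and Il6ra at 0.39. Il11ra1 was at 0.86 and 0.31, and overlaps Galt at 0.02. The ligands Il6 and Il11 stood far below their receptors, whereas the higher entry of Lif lay between the 2 entries of Lifr. Other gp130 ligands, outside the naming rule, were not all active, and Osm, the ligand of Osmr, and Ctf2 were inactive.

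Of the antagonists, Il1rn, which blocks the IL-1 receptor, was at 0.14, 0.14 and 0.12 at its 3 entries, and Il18bp, which binds IL-18, was at 0.39 beside Rnf121 at 0.73 ending 982 bp upstream. Tnfrsf11b (osteoprotegerin) was at 0.01. Il22ra2 and Il1f5 were inactive. Il4i1, an amino acid oxidase, was at 0.05 and overlaps Nup62 at 2.51, and Il1bos, a transcript opposite Il1b, was inactive.

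To describe whether ligand and receptor genes were active together, receptor chains were grouped for 29 cytokine complexes. All chains were active for 16 complexes and some chains for the other 13, and none of the complexes had every chain inactive. Since 68.7% of all symbols were active and chains recur between complexes, these counts describe the chains and were not tested against other gene sets. With each chain at 0.1 RPKmM or more there were 9 complexes, and with each at 1 or more there were 3, those of LIF, of IL-17A and IL-17F, and of IL-4 with the common gamma chain. Of the 13 complexes with an active ligand gene 7 had all chains active. Where ligand genes were listed but none was active, 9 complexes had all chains active and 6 did not. For IL-31 no ligand gene was listed. With a ligand and every chain at 0.1 RPKmM or more 2 remained, those of LIF and of CLCF1 and CNTF. A complex counted here where any listed ligand gene was active, and IL-27 rests on Il27 at 0.02 although Ebi3, which encodes the partner subunit, was inactive. The other 6 complexes with an active ligand gene lacked an active gene for some chain, for example Il7 without Il7r and Il18 without Il18r1. These include IL-12, where Il12a was at 0.06 and the partner subunit gene Il12b was inactive.

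Chains that serve several of the listed complexes were active more often than chains that serve a single one. The split follows that list, so a chain private here can be shared with cytokines that were not listed. Of 14 shared chains 13 were active (92.9%) with a median of 0.76 RPKmM, and the inactive one was Il7r. Of 24 private chains 13 were active (54.2%) with a median of 0.32, and of all symbols 68.7% were active. At 0.1 RPKmM or more there were 10 of 14 shared and 9 of 24 private chains, since the active shared chains Il2rb, Il22ra1 and Csf2rb were between 0.02 and 0.06. Among the shared chains, Gm20489 lies over Il2rg, Ifnar2 overlaps Il10rb and Nck1 ends upstream of Il20rb, all on the same strand. The private chains Il11ra1 and Il27ra have such neighbours too, Galt and Rln3. The part of these neighbours in the values was not tested. For IL-2 the shared chain Il2rg was at 2.77 and Il2rb at 0.02, while the private chain Il2ra was inactive. For IL-10 the shared Il10rb was at 0.61 while Il10ra was inactive, and for IL-31 Osmr was at 0.76 while Il31ra was inactive. For IL-17A both chains were active, and the ligand genes Il17a and Il17f were not. For IL-4 the receptor genes Il4ra, Il2rg and Il13ra1 were at 1.06, 2.77 and 0.62, and the genes of the ligands Il4 and Il13 were inactive.

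**Figure D3:**
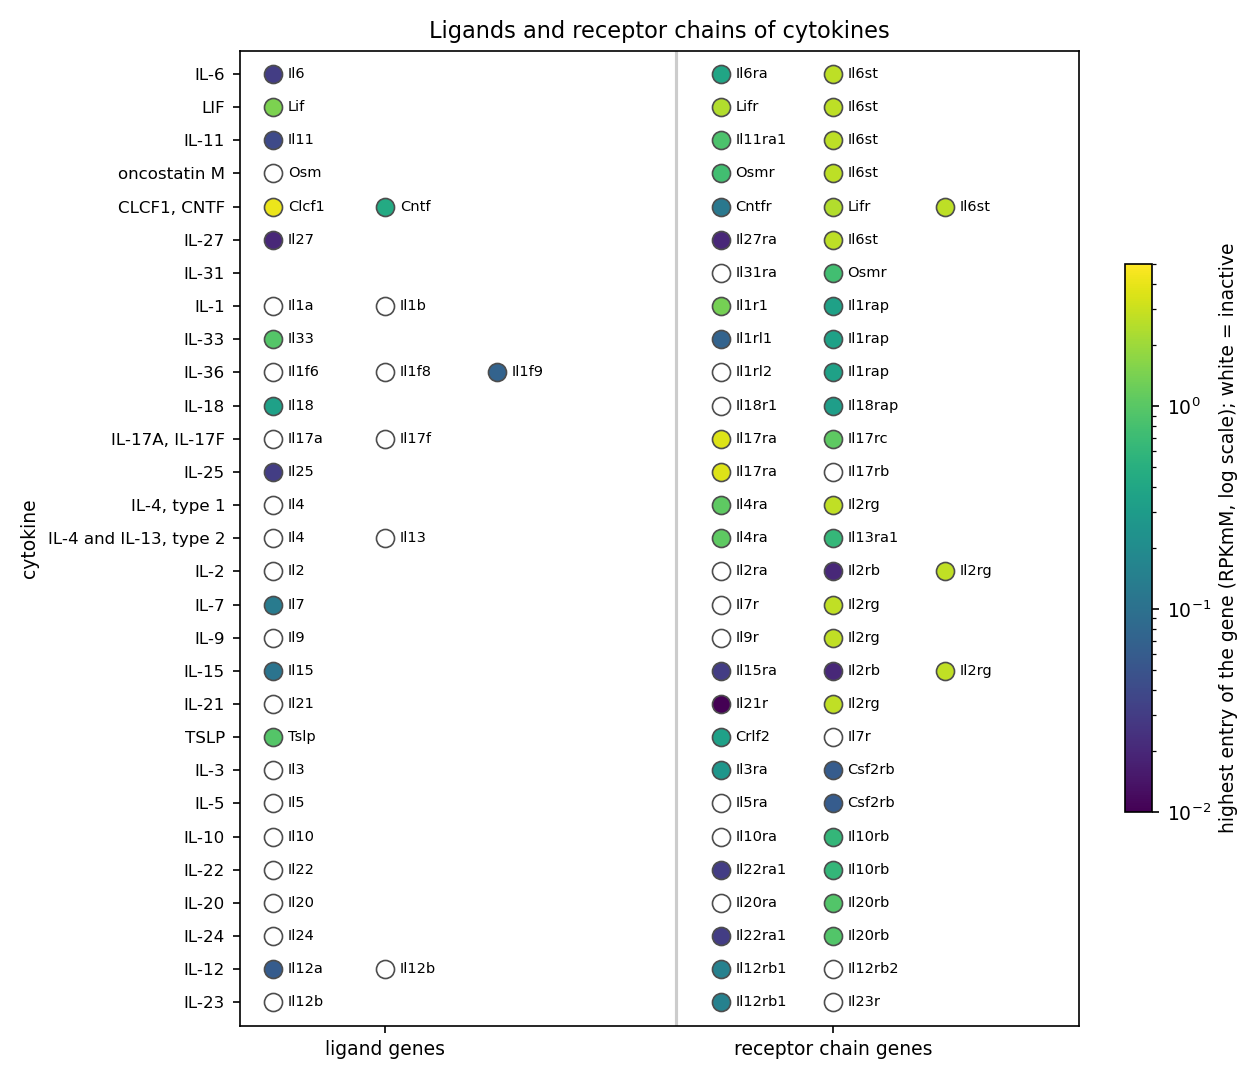
Ligand genes (left) and receptor chain genes (right) of 29 cytokine receptor complexes in rows; fill colour is the highest entry of the gene in RPKmM on a log scale, and white circles are inactive genes. Il6st and Il2rg each stand in 6 complexes, while most white circles lie among the ligands and private chains.

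Of 24 further pairs of chemokines or TNF ligands with a receptor, and Il34 with Csf1r, both genes were active in 10, the ligand only in 6, the receptor only in 5 and neither in 3, where 68.7% of all symbols were active. With both genes at 0.1 RPKmM or more there were 5 pairs, those of Cxcl12 with Cxcr4 and Ackr3, Tnfsf12 with Tnfrsf12a, and Tnf with its 2 receptors. Tnfsf12 at 0.46, which BC096441 overlaps, and Tnfrsf12a at 12.7 were both active, with the receptor far higher. Tnfsf15 at 0.04 faced Tnfrsf25 at 2.73, and Tnf, which lies outside the naming rule, at 0.15 faced Tnfrsf1a at 1.53. In the other direction Cxcl5 at 1.25 and Il34 at 1.64 faced the inactive receptor genes Cxcr2 and Csf1r. Ccl25 also faced an inactive receptor gene, Ccr9, but its 1.89 belongs to a noncoding entry, and its coding entry was at 0.07.

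Several entries of a gene can differ in their start or end. Of 25 member genes with several entries none mixed active and inactive entries. Among the 18 with several active entries, 7 differed by 1.5-fold or more and 1 by 3-fold or more. That gene was Ccl25, a chemokine of thymus and gut, at 1.89 for a noncoding entry and 0.07 for a coding entry. The annotation lists Ccl25 transcripts that start in 2 places 24.4 kb apart on mm9 chromosome 8, and which of them matches which entry was not settled.

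Many of these genes lie near each other in the genome, as families that grew by duplication often do. Members within 300 kb of the next formed 30 clusters, of which 12 had no active gene, 4 had every gene active and 14 were mixed. A position was known for 151 genes. Of the 80 genes in clusters 27 were active (33.8%), and of the 71 genes outside them 46 were (64.8%). Of all gene symbols 68.7% were active. The median of the active receptor genes was higher in clusters (0.76 RPKmM) than outside (0.295), that of the active ligand genes was lower (0.07 and 0.11), and that of all active members was 0.36 in clusters and 0.145 outside, while 8 of 80 and 10 of 71 genes reached 1 RPKmM. The difference in the share of active genes was larger for the ligands, with 9 of 42 active in clusters (21.4%) and 17 of 27 outside (63%), against 17 of 35 receptors (48.6%) in clusters and 26 of 41 outside (63.4%). In the chromosome 1 cluster of IL-1 family receptors, Il1r1 at 1.38, Il1rl1 at 0.07 and Il18rap at 0.32 were active and their 3 neighbours were not. In the cluster of Il4, Il13 and Il5 on chromosome 11, and in that of Il24, Il20, Il19 and Il10 on chromosome 1, no gene was active. Among the members of its cluster on chromosome 5, Cxcl5 was active, and Cxcl15 and Cxcl2 were not. Cxcl3, which ends 6448 bp upstream of Cxcl15 on the same strand, had no value, so its activity is not known. Clusters hold only members with an entry, so other genes of a locus can be missing from these counts and shares.

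**Figure D4:**
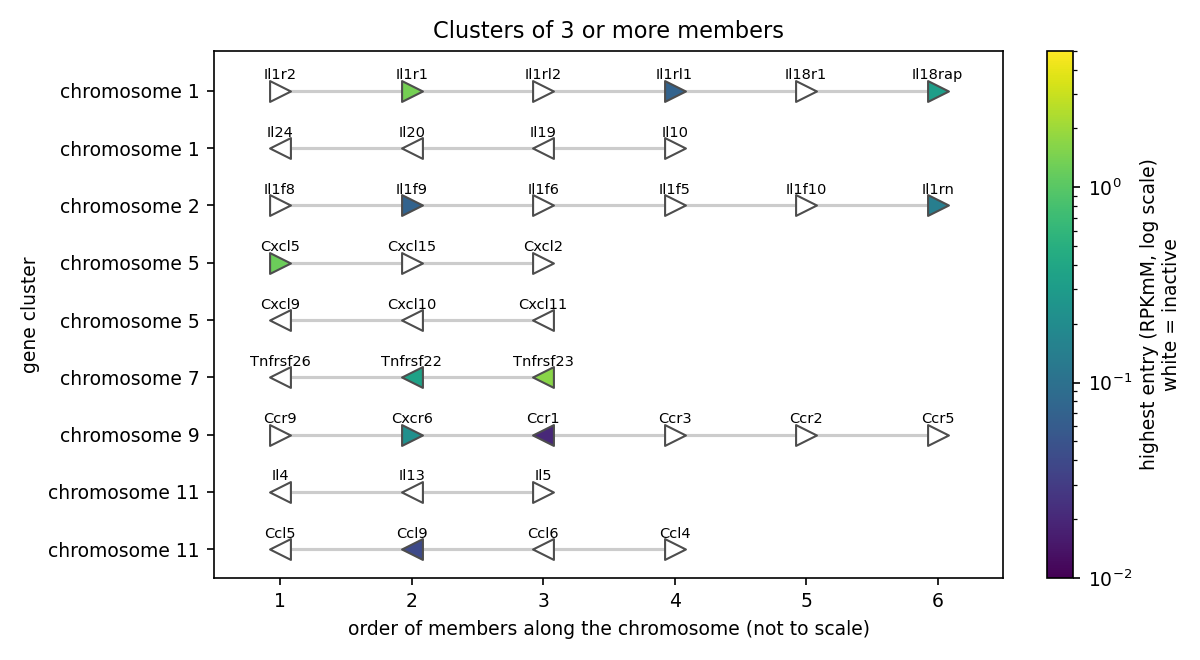
Clusters of 3 or more members in their order along the chromosome (not to scale), with arrowheads for the strand; fill colour is the highest entry of the gene in RPKmM on a log scale, and white is inactive. Active genes stand beside inactive neighbours in 6 of these 9 clusters, and the other 3 have no active gene.

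Promoters could be matched for 116 of the 152 member genes and for 15720 of the 20128 symbols of the table. Promoter shares given for all genes are over the matched symbols. A promoter was called CpG-rich where its 300 bases had a GC content of at least 50% and an observed over expected CpG ratio of at least 0.6. Of the active members 19 of 54 had such a promoter (35.2%), and of the inactive members 3 of 62 (4.84%), namely Cxcl14, Il17rb and Il1r2. Over all genes with a matched promoter the shares were 69.4% of active and 18.2% of inactive genes. The active members were therefore less often CpG-rich than active genes at large. At 1 RPKmM or more, 7 of 15 members were CpG-rich (46.7%), against 82.5% of all such genes. Active receptors had 15 of 35 and active ligands 4 of 16. Il2rg, Lif and Il17rc were among the members at 1 or more without a CpG-rich promoter.

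**Figure D5:**
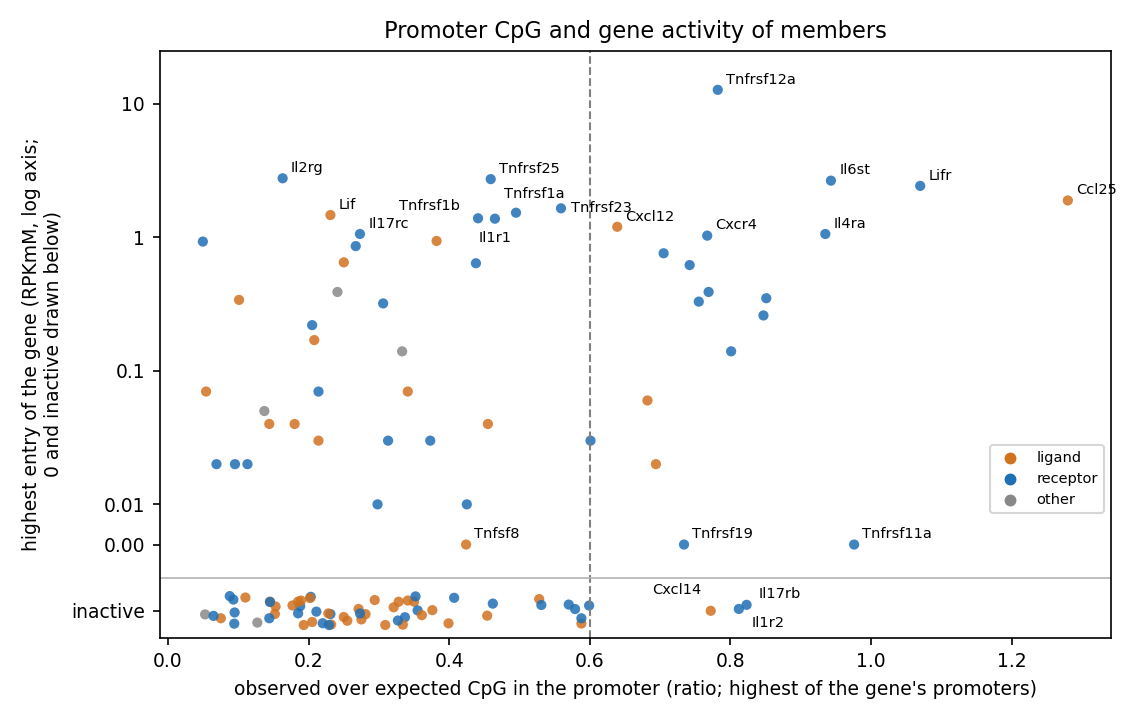
Highest entry of each member gene (RPKmM, log axis; inactive genes and those listed at 0 below) against the observed over expected CpG ratio of its promoter, with the CpG-rich limit of 0.6 as a dashed line; ligands are orange, receptors blue and others grey. Of 22 CpG-rich members 19 were active (86.4%, against 89.6% of all CpG-rich genes), and of the 94 others 35 were (37.2%, against 45.7%).

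The letters TATAAA were found in the promoters of 5 of 16 active ligands (31.2%) and 11 of 32 inactive ligands (34.4%). Of the receptors 3 of 35 active (8.57%) and 2 of 28 inactive genes (7.14%) held them. The share was 11.7% of all genes with a matched promoter and 13.6% of all promoters of the same length. The AP-1 motif TGANTCA stood in 23.3% of members, 8.03% of all genes with a matched promoter and 7.81% of all promoters. The E-box CAGCTG, a sequence MyoD can bind, stood in 33.3% of active and 12.9% of inactive members, in 19% of all genes and in 16.3% of all promoters. The kappaB consensus stood in 13.8% of members, 6.01% of all genes and 4.51% of all promoters, and in 9.26% of active and 17.7% of inactive members. Both strands were searched for each motif, and overlaps between motifs were not removed. A gene with several promoters counts where any of them holds the motif, so its share is best set against that of all genes, and a match is not evidence of binding.

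Most signalling genes downstream of these receptors were active, in lists of widely used genes that are read here against the 70.2% of all entries that were active. Of 37 entries of a list of JAK, STAT, SOCS and PIAS genes, with the phosphatase genes Ptpn6 and Ptpn11, 35 were active (94.6%), with a median of 1.52 RPKmM. Jak1 was at 3.46, Stat3 at 1.22, and Socs3, a feedback inhibitor of gp130 signalling, at 4.02, while both entries of Stat4 were inactive. Stat6, the factor downstream of Il4ra, was listed at 0.02. Of 53 entries of NF-kB, TRAF and adaptor genes 52 were active (98.1%), with a median of 1.29, and the inactive one was Birc3. Rela was at 1.67, Nfkb1 at 3.31, and Nfkbiz reached 7.91. Cytokine genes and receptors whose symbols fall outside the rule had 31 of 53 entries active (58.5%), with Clcf1 at 4.17 and 4.1, Csf1 at 3.86 and 3.79, and Ltbr at 3.62. Clcf1 encodes a ligand that acts through gp130 and LIFR.

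Reads from neighbours can enter some of these values. Of the 73 active member genes 14 overlapped, or began within 10 kb after, an active gene on the same strand, and in 8 that gene was at least as active. Of the 18 genes at 1 RPKmM or more 4 did, namely Il34, Tnfrsf25, Tnfrsf23 and Tnfrsf1a, the last beside Scnn1a at 0.02. These counts are minima, since neighbours without a value in the table were not counted, among them Gm20489 over Il2rg and Cldn9, which ends 5136 bp upstream of Tnfrsf12a. Of the 78 inactive member genes with a known position, 6 had such a neighbour as well. Without the active and inactive genes that have one, 78 of 159 entries were active (49.1%) and 16 reached 1 RPKmM.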

How the data were processed

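GRO-seq was performed on 2 replicate libraries of untreated C2C12 myoblasts. Reads were processed with CASAVA 1.8 and mapped to mm9 with Bowtie2, per the labels, and the study's methods state that uniquely mapped reads were kept, that reads at rRNA and tRNA repeats were removed, and that genes of 2 kb or longer were taken. The authors deposited a single table in which each RefSeq entry has a gene activity in RPKmM, an RPKM computed over mappable bases of the gene body from 1 kb after the start, for the pooled libraries, or the word Inactive where the density did not pass a Poisson comparison with gene deserts. Values are rounded to 2 decimals, 154 active entries are listed at 0, and no read counts or depth per library were used here. The gene body leaves out reads near the start site, so pausing there does not enter the values, and those of short genes rest on few bases.

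Here entries were counted as active as the authors called them, and medians are over active entries. Where a gene has several entries, complexes, pairs, clusters and promoters use the highest. Gene spans are from the GENCODE annotation of mm9 (NCBIM37), and promoters are RefSeq's on GRCm38.p6, from 250 bases before to 50 after the start, matched by accession. The genes named are members at 1 RPKmM or more, the 3 most active of each family, fixed ligand and receptor pairs and whole clusters; others named were chosen after their values were seen, as were the cluster and promoter descriptions. Members and lists were chosen with earlier results of these data known. Code for counts and medians was tested on simulated data. Python 3.11.15, numpy 2.4.6, pandas 2.3.3, scipy 1.17.1 and matplotlib 3.10.9 were used.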

Additional observations from a re-analysis of the deposited data

How the results depend on the processing

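15 results were computed under 50 alternative values, of which 42 stayed within the 95% binomial or order-statistic interval of the reported value, or within 1.5 times for a count. These intervals treat entries as independent draws, although some genes have several entries, and the alternatives reuse the same entries. The count therefore describes how far values moved and is no test of the results. The alternatives planned were 1 entry for each gene, protein-coding entries only, entries at 0 taken as inactive, active only at 0.1 RPKmM or more, activities of at least 0.01, pseudocounts, the median of all active entries as the level counted, and other role assignments. Others were chosen after seeing the data, namely cluster gaps, promoter rules, levels for receptor chains and pairs, and the omission of genes with an active neighbour. The 8 that moved all raise the level required. Taking entries as active only at 0.1 RPKmM or more gave 31.7% of members, 21.8% of ligands, 38.9% of receptors and 43.4% of the cytokine relatives outside the naming rule, and receptors stayed above ligands. With each chain at 0.1 RPKmM or more 9 receptor complexes were complete, and with each at 1 or more 3 were. With a ligand and every chain at 0.1 or more 2 complexes remained, and 5 pairs had both genes at that level. Ligands by gene symbol were active in 37.7% and receptors in 56.6%. No paired analysis was possible because the 2 libraries were pooled into 1 value, and for the same reason no library could be left out. Rounding leaves the order of the least active genes undefined, and the table gives no reads per value.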
